A study of Macaca mulatta with 12 samples.

Results

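The nuclei described here carried transcripts of both LHX6 and ADARB2, genes that usually mark separate branches of inhibitory neurons. Members were chosen by their counts of 6 genes: a nucleus was co-expressing if it held at least 3 UMIs (unique molecular identifiers, each standing for 1 captured RNA molecule) of GAD1 and GAD2 together, at most 1 of SLC17A7, 0 of SST, at least 2 of LHX6 and at least 10 of ADARB2. This rule found 80 of 26400 nuclei, or 0.303% (95% Clopper-Pearson interval 0.240 to 0.377%). They made up 2.52% (2.00 to 3.13%) of the 3174 inhibitory nuclei, meaning those that met the limits on GAD1, GAD2 and SLC17A7. They were set against 337 LHX6-only nuclei, with at least 2 UMIs of LHX6 and under 10 of ADARB2, and 1351 ADARB2-only nuclei, with at least 10 UMIs of ADARB2 and 0 of LHX6. Both comparison groups had the same limits on GAD1, GAD2, SLC17A7 and SST. The genes of the rule therefore differ by construction, and their values are given as a description.

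The study profiled nuclei from frozen amygdala of rhesus macaques by droplet single-nucleus RNA sequencing, with no treatment, genotype or time to compare. All 12 labelled samples are 1 group, whose titles number 3 specimens with 4 libraries each. Every barcode ends in 1 of 3 suffixes, here called barcode sets, and no label ties a suffix to a specimen. All nuclei were hence taken as 1 sample, with no test between groups and no p-value. All intervals are 95% and cover counting error only, and the barcode sets, which may be technical, serve to see whether a direction recurred.

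LHX6 is a transcription factor kept by cortical interneurons born in the medial ganglionic eminence, the embryonic source of somatostatin and parvalbumin cells. ADARB2, an RNA-binding relative of the RNA-editing adenosine deaminases, marks interneurons of the caudal ganglionic eminence, among them VIP, reelin and most LAMP5 cells. Cells with both genes are known from the primate cortex, where they carry LAMP5 and resemble the ivy and neurogliaform cells of the mouse hippocampus, which release GABA into the surrounding volume and often make nitric oxide.

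The 3 barcode sets held 9201, 8900 and 8299 nuclei with 52231758, 51570932 and 47724193 UMIs, and the median nucleus had 5053.5 UMIs. Of the barcode sequences 68 occurred in more than 1 set, and 1 co-expressing nucleus carried such a barcode. Excitatory nuclei, with at least 2 UMIs of SLC17A7 and 0 of GAD1 and GAD2, served as the background for free RNA. The median was 6314 UMIs in inhibitory and 10513.5 in excitatory nuclei. At least 2 UMIs of LHX6 were seen in 19.3% of inhibitory nuclei, against 2 of 3192 excitatory nuclei (0.0627%). At least 10 UMIs of ADARB2 were seen in 54.1% of inhibitory and 10.8% of excitatory nuclei. Both conditions were met by 1 excitatory nucleus.

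Co-expressing nuclei were spread evenly over the barcode sets. There were 28, 28 and 24 of them, or 2.45, 2.60 and 2.51% of the inhibitory nuclei of each set. LHX6 stood at 2 UMIs in 42 of them and at 3 or more in 38, with a highest value of 5. ADARB2 ran from 10 to 122 UMIs with a median of 23, whereas ADARB2-only nuclei had a median of 63 and a highest value of 488. Of the 417 nuclei with at least 2 UMIs of LHX6 and no SST, 223 had no ADARB2 UMI and 78 had 1 or 2. Just outside the threshold, 8 nuclei had 7 to 9 UMIs of ADARB2, and just inside it 14 had 10 to 12. A further 70 nuclei had 1 UMI of LHX6 and at least 10 of ADARB2 and belong to none of the 3 groups.

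**Figure D1:**
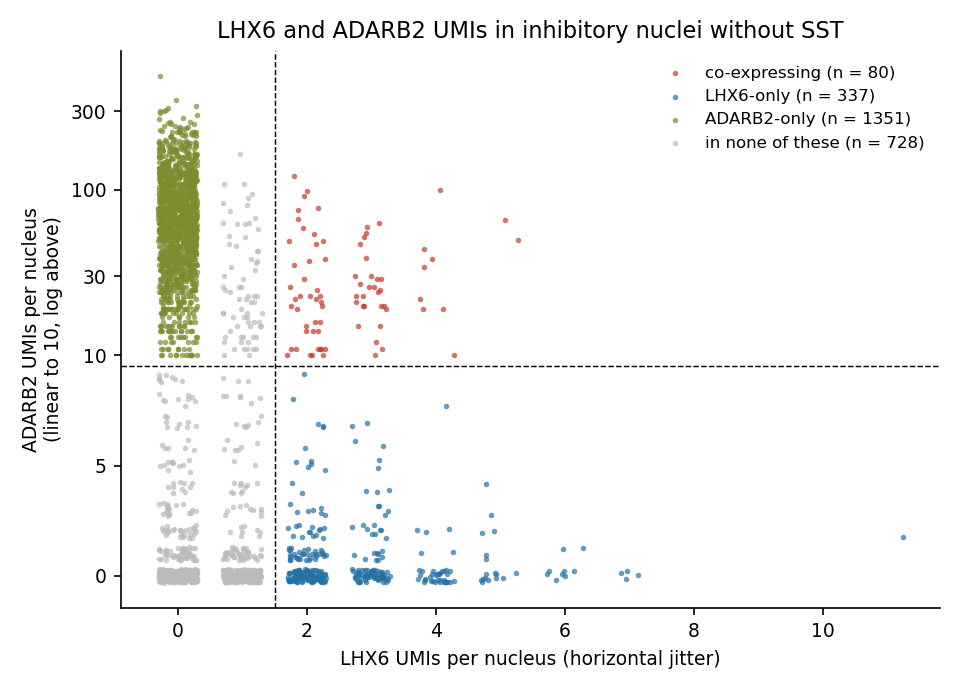
LHX6 UMIs (horizontal axis, jittered) and ADARB2 UMIs (vertical axis, linear to 10 and logarithmic above) of each inhibitory nucleus without SST; dashed lines mark the thresholds. The 80 co-expressing nuclei fill the upper right field, mostly at 2 or 3 LHX6 UMIs and below the bulk of the ADARB2-only nuclei.

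The label of inhibitory neurons was checked on genes outside the rule. SLC32A1, the vesicular GABA transporter, had a UMI in 18.8% of co-expressing nuclei and in 1.60% of excitatory ones. Its level was 28.1 CPM (summed UMIs of the gene per 1000000 summed UMIs; exact Poisson interval 16.4 to 44.9) in co-expressing, 16.6 CPM in LHX6-only and 15.9 CPM in ADARB2-only nuclei. The co-expressing nuclei held few SLC32A1 UMIs, 8 in 65 nuclei that clustered together and 9 in the other 15, as described below. The 9 genes of excitatory neurons summed to 228 CPM in co-expressing, 197 CPM in LHX6-only and 237 CPM in ADARB2-only nuclei. Of these, SLC17A6, TBR1 and NEUROD2 were at 0 UMIs in the 605595 UMIs of the co-expressing nuclei. Against LHX6-only nuclei 1 gene of the list was measured and 0 were called (log2 ratio 0.16).

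Total UMIs of the co-expressing nuclei were close to those of either comparison group. The median was 6727 in co-expressing, 6949 in LHX6-only and 5881 in ADARB2-only nuclei, which gives ratios of 0.968 and 1.14. A pair of nuclei of both comparison groups in 1 droplet would hold about 12830 UMIs, the sum of the 2 comparison medians. That sum was exceeded by 6 co-expressing nuclei (7.50%), 15 LHX6-only nuclei (4.45%) and 40 ADARB2-only nuclei (2.96%). No deposited nucleus had more than 4999 detected genes, and the deepest co-expressing nucleus, at 16382 UMIs, had 4813. Pairs with more genes may thus be missing from the deposited nuclei, so these counts cannot settle how many pairs were formed. Whether such pairs were removed was not tested. Scrublet, which scores each nucleus against simulated pairs, placed 5 co-expressing nuclei (6.25%, interval 2.06 to 14.0%) among the presumed doublets. The share was 4.15% of LHX6-only, 7.77% of ADARB2-only and 7.40% of all inhibitory nuclei.

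**Figure D2:**
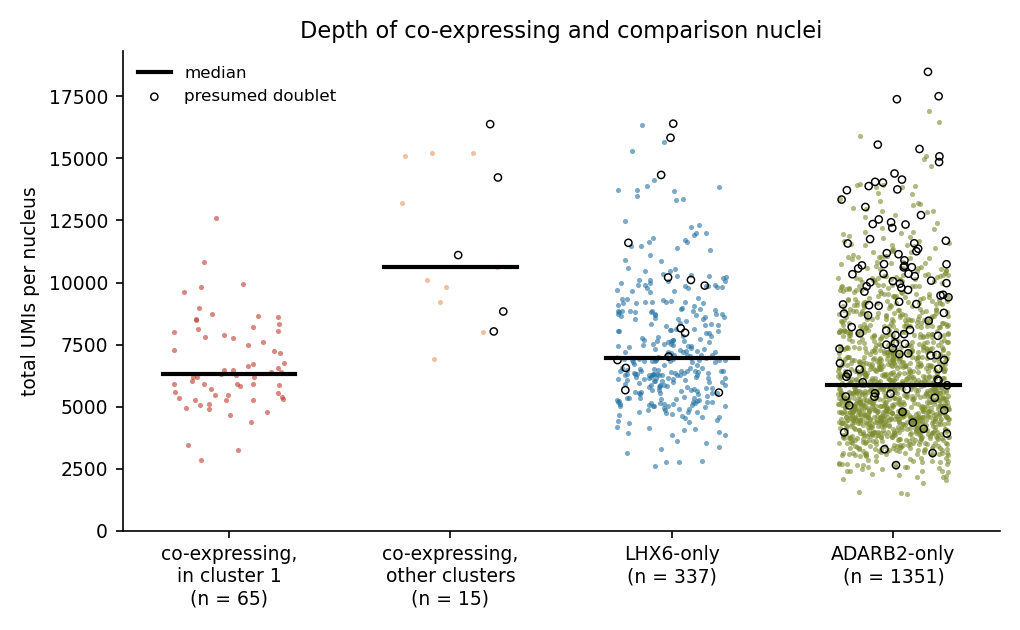
Total UMIs of each nucleus by group, with black bars at the medians and open circles for presumed doublets; the co-expressing nuclei are drawn separately for cluster 1 and for the other clusters. The 65 co-expressing nuclei of cluster 1 have a median of 6297 UMIs and no presumed doublet, and the 15 others have a median of 10632 UMIs and 5 presumed doublets.

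At the main settings most co-expressing nuclei gathered in 1 cluster although the rule genes were left out of the clustering. Cluster 1, with 622 of the inhibitory nuclei, held 65 of the 80 co-expressing nuclei (81.3%, 71.0 to 89.1%), with 25, 21 and 19 from the 3 barcode sets. It held 124 LHX6-only nuclei (36.8% of that group) and 63 ADARB2-only nuclei (4.66%). Its leading genes by fold over other inhibitory nuclei were SFTA3, PTGS1, CASR, DRD3 and KDR. LHX6 averaged 210 CPM (summed) in it and ADARB2 1684 CPM, and 75 of its nuclei (12.1%) passed both thresholds, 10 of them with SST UMIs. Finer settings broke cluster 1 apart, so the share in any single cluster was 43.8% at a resolution of 1.0. Under each of 4 other clusterings of all barcode sets, clusters made mainly of cluster 1 nuclei held 65 of 80 co-expressing nuclei, or 67 of 75 (89.3%) once presumed doublets were left out. These clusters were picked by their share of cluster 1 nuclei, so the counts largely repeat the first clustering.

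The 15 co-expressing nuclei outside cluster 1 differed from the 65 inside it in depth and in markers. They lay in 6 clusters, with 4 of them in cluster 12 and 2 in cluster 10. In these 2 clusters 74.5% and 59.1% of all nuclei were presumed doublets. The 15 nuclei had a median of 10632 UMIs, against 6297 in the 65 nuclei of cluster 1, and 5 of 15 (33.3%) against 0 of 65 (at most 5.52%) were presumed doublets. LAMP5 stood at 29.1 CPM outside and 115 CPM inside, EYA4 at 209 CPM outside and 757 CPM inside. The order was the opposite for SATB1, at 180 CPM outside and 11.5 CPM inside, for CNR1, at 558 and 134 CPM, and for RELN, at 651 and 173 CPM. SLC32A1 had 52.3 CPM outside and 18.5 CPM inside, from 9 and 8 UMIs. The LHX6-only and ADARB2-only nuclei of cluster 1 had SLC32A1 at 29.6 and 30.8 CPM. The part of paired nuclei in these differences was not tested.

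**Figure D3:**
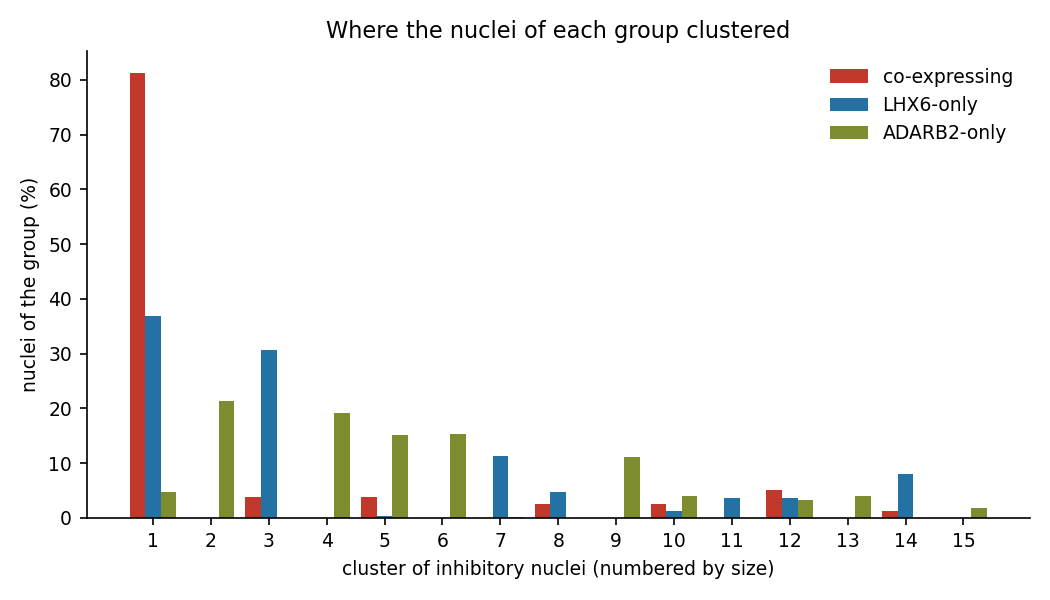
Percent of the nuclei of each group (vertical axis) in each of 15 clusters of inhibitory nuclei (horizontal axis). Cluster 1 holds 81.3% of co-expressing nuclei, 36.8% of LHX6-only nuclei and 4.66% of ADARB2-only nuclei; clusters 10 and 12 also hold nuclei of all 3 groups.

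Most measured genes of neurogliaform and ivy cells were higher in the co-expressing nuclei than in the pooled ADARB2-only nuclei. A gene was called higher or lower if it differed at least 2-fold, in the same direction in all 3 barcode sets, with at least 50 UMIs on either side. Of 7878 genes measured against ADARB2-only nuclei, 2.35% were called higher and 4.1% lower, and the median log2 ratio of all was −0.02. Of the 9 measured genes of this list, 7 were higher (LAMP5, SV2C, EYA4, NOS1, ID2, CHST9 and GABRD) and 2 were lower (NDNF and RELN), with a median log2 ratio of 1.87. The list was chosen with these data known. The ADARB2-only nuclei are a mixture of clusters, and some of these carried the same genes without holding a co-expressing nucleus. Cluster 9, with 150 ADARB2-only nuclei among 166, had LAMP5 at 103, SV2C at 319, EYA4 at 665 and NOS1 at 140 CPM. Cluster 6, with 207 ADARB2-only nuclei among 258, had LAMP5 at 66.7, SV2C at 261, EYA4 at 44.7 and NOS1 at 152 CPM.

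LAMP5, a membrane protein of GABA-releasing terminals, had 104, 101 and 66.4 CPM in the 3 barcode sets of co-expressing nuclei. In LHX6-only nuclei it had 58.0, 32.0 and 35.0 CPM, and in ADARB2-only nuclei 25.1, 29.6 and 19.4 CPM. The lowest co-expressing set stood above every set of the other pooled groups, while cluster 9, mostly of ADARB2-only nuclei, was at 103 CPM. Its log2 ratio was 1.13 (0.63 to 1.61) over LHX6-only and 1.87 (1.41 to 2.30) over ADARB2-only nuclei. A LAMP5 UMI was found in 48.8% of co-expressing nuclei, 22.0% of LHX6-only and 12.1% of ADARB2-only nuclei, against 6.95% of the deeper excitatory nuclei. With each nucleus thinned to 2000 UMIs, these shares were 18.8, 9.20, 5.49 and 1.34%.

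EYA4, a transcriptional co-activator, had 790, 465 and 551 CPM in co-expressing nuclei, 399, 276 and 279 CPM in LHX6-only nuclei and 113, 179 and 123 CPM in ADARB2-only nuclei. The 3 groups did not overlap, and the log2 ratio was 0.92 over LHX6-only, short of the 2-fold limit, and 2.13 (1.95 to 2.30) over ADARB2-only nuclei. NOS1, the neuronal nitric oxide synthase, was at 264 CPM (225 to 308) in co-expressing and 278 CPM in LHX6-only nuclei, and at 58.1 CPM in ADARB2-only nuclei. Its sets in the co-expressing nuclei, at 348, 240 and 204 CPM, overlapped those of the LHX6-only nuclei. SV2C, a glycoprotein of synaptic vesicles, had 353, 189 and 95.6 CPM in the 3 groups in the same order.

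Reelin and NDNF, secreted proteins that mark other neurogliaform cells, ran the other way. RELN, the secreted glycoprotein reelin, had 209, 211 and 516 CPM in the barcode sets of co-expressing nuclei, 172, 276 and 195 CPM in LHX6-only nuclei, and 2484, 2759 and 2625 CPM in ADARB2-only nuclei. Its log2 ratio over ADARB2-only nuclei was −3.08 (−3.30 to −2.88). NDNF had 2 UMIs in all co-expressing nuclei, or 3.30 CPM (0.400 to 11.9), against 61.3 CPM in ADARB2-only nuclei. CA1, CPLX3 and LSP1 of the same list were at 0 UMIs in co-expressing nuclei.

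**Figure D4:**
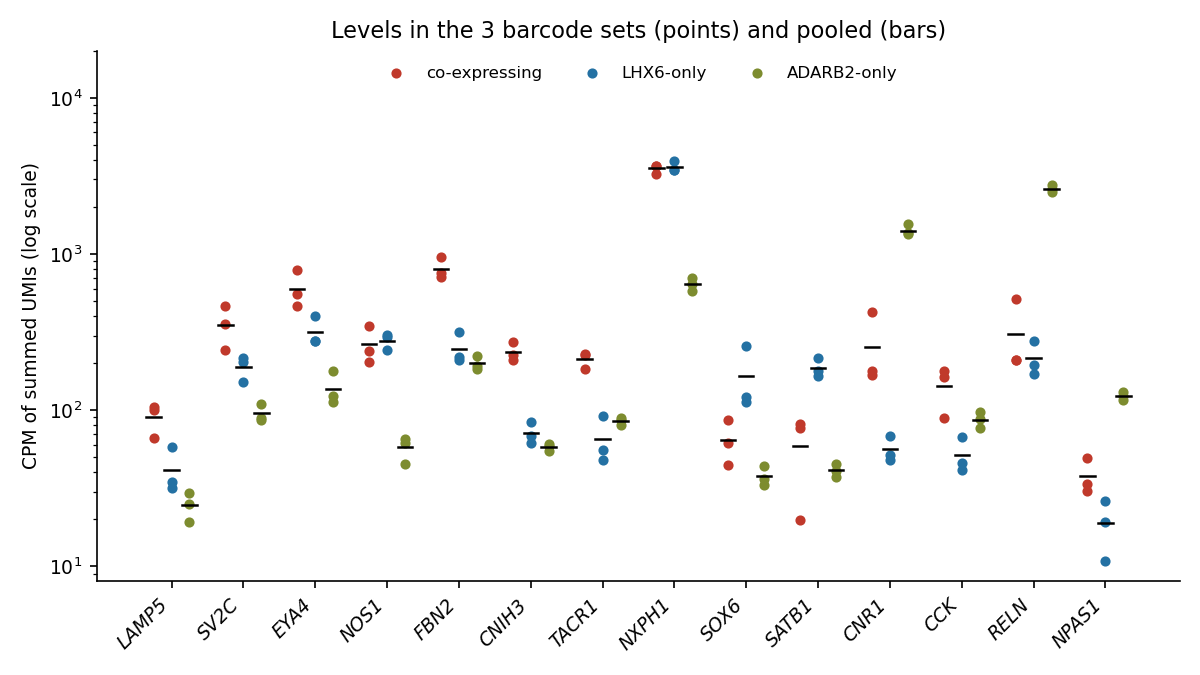
Levels of 14 genes in CPM (vertical axis, log scale), with a point for each barcode set and a black bar for the pooled nuclei of co-expressing, LHX6-only and ADARB2-only groups. NXPH1 and NOS1 lie together in co-expressing and LHX6-only nuclei, SATB1 and SOX6 are highest in LHX6-only nuclei, CNR1 and RELN in ADARB2-only nuclei, and FBN2, CNIH3, TACR1 and LAMP5 in co-expressing nuclei.

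Against LHX6-only nuclei, 6675 genes were measured. Of these 1.39% were called higher and 3.51% lower in the co-expressing nuclei, around a median log2 ratio of −0.03. These are 93 and 234 genes; 359 were lower in the 65 nuclei of cluster 1 alone, and 167 were higher where the comparison groups had no limits on SLC17A7 and SST. Of the neurogliaform and ivy list, 1 of 7 measured genes was higher, LAMP5, and 0 were lower, with a median log2 ratio of 0.52. Of the medial eminence list, 2 of 6 measured genes were lower, the transcription factors SOX6 and SATB1, and 0 were higher. The median log2 ratio of the list was −0.46. SATB1, a chromatin organiser needed by somatostatin cells in mice, had 19.9, 76.7 and 81.7 CPM in co-expressing nuclei and 166, 216 and 179 CPM in LHX6-only nuclei, without overlap. In ADARB2-only nuclei it had 41.4 CPM. Of the 36 SATB1 UMIs of the co-expressing nuclei, 31 came from the 15 nuclei outside cluster 1. The LHX6-only nuclei are a mixture of clusters too. Cluster 3, with 103 LHX6-only nuclei among 298, had SOX6 at 248 and SATB1 at 327 CPM. Inside cluster 1 SOX6 had 50.7 CPM in co-expressing and 51.2 CPM in LHX6-only nuclei, and SATB1 had 11.5 and 14.8 CPM. Both genes had too few UMIs there for a call.

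SOX6 had 64.4 CPM (45.8 to 88.0) in co-expressing, 166 CPM in LHX6-only and 38.2 CPM in ADARB2-only nuclei. NXPH1, a neurexophilin that binds neurexins and is typical of medial eminence interneurons, showed the opposite placement. It had 3668, 3668 and 3242 CPM in co-expressing nuclei, 3431, 3926 and 3459 CPM in LHX6-only nuclei and 582, 699 and 639 CPM in ADARB2-only nuclei. Every co-expressing nucleus held NXPH1, with 4 to 62 UMIs and a median of 27. The log2 ratio of NXPH1 was −0.03 (−0.10 to 0.04) over LHX6-only and 2.47 (2.40 to 2.54) over ADARB2-only nuclei. LHX8 and CHODL of this list were at 0 UMIs in the co-expressing nuclei.

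For genes of the caudal eminence lineage the calls ran up against LHX6-only nuclei and down against ADARB2-only nuclei. Over LHX6-only nuclei 2 of 3 measured genes were higher, CCK and CNR1. Against ADARB2-only nuclei 0 of 9 were higher and 6 were lower, NR2F2, NPAS1, HTR3A, CNR1, CXCL14 and CRH, with a median log2 ratio of −1.71. Of all measured genes, 1.39% were higher against LHX6-only nuclei. Against ADARB2-only nuclei 2.35% of all were higher and 4.1% lower. The difference between this list and all genes was not tested. CNR1, the cannabinoid receptor of presynaptic terminals, had 169, 177 and 424 CPM in co-expressing nuclei, 52.0, 68.6 and 48.2 CPM in LHX6-only nuclei and 1358, 1343 and 1552 CPM in ADARB2-only nuclei. The 15 nuclei outside cluster 1 gave 96 of the 154 CNR1 UMIs. CCK, the peptide cholecystokinin, was at 144 CPM (115 to 177) in co-expressing, 51.4 CPM in LHX6-only and 86.6 CPM in ADARB2-only nuclei. PROX1, a homeobox factor kept by caudal eminence interneurons in mice, had 69.4 CPM in co-expressing, 18.2 CPM in LHX6-only and 81.3 CPM in ADARB2-only nuclei. Its 42 and 46 UMIs in the first 2 groups were below the 50 needed for a call. HTR3A, the ionotropic serotonin receptor subunit, had 2 UMIs in co-expressing nuclei, or 3.30 CPM, and 45.1 CPM in ADARB2-only nuclei.

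Some genes stood above both pooled comparison groups. Of 6593 genes measured in both comparisons, 0.364% (24 genes) were called higher in both and 1.05% (69 genes) lower in both. Both comparisons share the co-expressing nuclei, so an error in their counts moves both. The 65 co-expressing nuclei of cluster 1 alone, an alternative chosen after the data were seen, gave 57 genes above and 181 below both groups. The count above both was 49 where the comparison groups had no limits on SLC17A7 and SST. The highest by the smaller ratio was CNIH3, a cornichon protein that escorts AMPA receptors. CNIH3 had 273, 211 and 225 CPM in co-expressing nuclei, 84.7, 61.8 and 68.7 CPM in LHX6-only nuclei and 60.7, 58.6 and 55.1 CPM in ADARB2-only nuclei, with log2 ratios of 1.72 (1.40 to 2.05) and 2.02 (1.74 to 2.29). FBN2, the matrix protein fibrillin 2, had 716, 753 and 955 CPM in co-expressing nuclei, 317, 209 and 219 CPM in LHX6-only nuclei and 193, 221 and 183 CPM in ADARB2-only nuclei. It was found in 83.8% of co-expressing nuclei, at up to 23 UMIs, and in 6.55% of excitatory nuclei.

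Receptors were among these genes. TACR1, the substance P receptor, had 184, 225 and 230 CPM in co-expressing nuclei, 91.9, 56.0 and 48.2 CPM in LHX6-only nuclei and 80.8, 89.3 and 86.2 CPM in ADARB2-only nuclei. The groups did not overlap, and the log2 ratios were 1.71 (1.36 to 2.05) and 1.32 (1.04 to 1.59). HRH1, the histamine H1 receptor, was at 325 CPM (281 to 374) in co-expressing, 153 CPM in LHX6-only and 142 CPM in ADARB2-only nuclei. Cluster 9 had TACR1 at 387 CPM and HRH1 at 380 CPM, both above the co-expressing nuclei. CACNA2D1, an auxiliary subunit of calcium channels, had 1131, 483 and 396 CPM in the 3 groups in that order. Inside cluster 1 CACNA2D1 had 1377, 1145 and 1413 CPM in that order, with no call. KCNA4, a potassium channel of the rapidly inactivating kind, had 42.9, 21.3 and 17.6 CPM.

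Of the other genes above both groups, KITLG, the ligand of the KIT receptor, had 77.6 CPM (57.0 to 103) in co-expressing, 26.5 CPM in LHX6-only and 29.5 CPM in ADARB2-only nuclei. CA8, a carbonic anhydrase relative that binds the inositol trisphosphate receptor, had 87.5, 29.6 and 31.0 CPM in that order. It was also a leading gene of cluster 9, which was mostly of ADARB2-only nuclei and held 0 co-expressing nuclei. MTHFD2L, a mitochondrial folate enzyme, had 301, 111 and 87.8 CPM. SULF2, which trims heparan sulphate, had 226, 89.7 and 79.1 CPM. The other genes of the 15 highest were B3GALT2, CRTAC1, ANO3, MYO3A, LAMP5, ITGA8 and MAML2, with log2 ratios from 1.10 to 1.34 over LHX6-only nuclei and from 1.29 to 2.52 over ADARB2-only nuclei.

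Genes below both groups were mostly at a few UMIs in the co-expressing nuclei. NXPH2, a neurexophilin like NXPH1, had 6 UMIs in them, or 9.91 CPM (3.64 to 21.6), against 76.3 CPM in LHX6-only and 72.6 CPM in ADARB2-only nuclei. CSGALNACT1, an enzyme of chondroitin sulphate synthesis, had 21.5, 124 and 95.7 CPM in co-expressing, LHX6-only and ADARB2-only nuclei. COL19A1, a collagen chain, had 24.8 CPM (13.9 to 40.8) in co-expressing, 81.8 CPM in LHX6-only and 186 CPM in ADARB2-only nuclei. TSHZ2, a zinc finger transcription factor, had 8.26, 39.5 and 33.0 CPM. The remaining 6 of the 10 lowest, FGD6, ZBTB46, ZNF468, BAIAP3, ZNF484 and YES1, had 2 to 5 UMIs each in the co-expressing nuclei. Inside cluster 1 CSGALNACT1 had 13.8, 10.8 and 25.6 CPM in co-expressing, LHX6-only and ADARB2-only nuclei. COL19A1 had 16.1, 16.2 and 12.8 CPM there, and TSHZ2 had 6.92, 13.5 and 2.56 CPM. The others of the 10 were still lowest in co-expressing nuclei there. None of the 10 had enough UMIs inside cluster 1 for a call.

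Against each group alone the widest differences fell on other genes. THSD7B, a thrombospondin domain protein, had 302 CPM (260 to 349) in co-expressing and 74.7 CPM in LHX6-only nuclei, next to 441 CPM in ADARB2-only nuclei. DSCAM, a cell adhesion molecule, had 261 CPM in co-expressing, 77.1 CPM in LHX6-only and 315 CPM in ADARB2-only nuclei. UNC13C, a vesicle priming protein, had 433, 128 and 236 CPM in the 3 groups. TLL1, a metalloprotease, was lower, at 39.6 CPM (25.4 to 59.0) in co-expressing and 253 CPM in LHX6-only nuclei. BCAS1 and PROM1 had 1 UMI each in co-expressing nuclei, with levels of 33.2 and 24.5 CPM in LHX6-only nuclei.

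Over ADARB2-only nuclei the highest ratio belonged to MORN5, with 89.5, 115 and 76.6 CPM in the sets of co-expressing nuclei and 4.40, 6.13 and 3.80 CPM in those of ADARB2-only nuclei. Its level in LHX6-only nuclei was 88.9 CPM, and its log2 ratios were 4.29 (3.69 to 4.90) over ADARB2-only and 0.08 over LHX6-only nuclei. DGKK, a diacylglycerol kinase, had 67.7, 36.0 and 8.12 CPM in co-expressing, LHX6-only and ADARB2-only nuclei. CDH20, a cadherin, had 1344, 1894 and 279 CPM, and TMEM132C had 454, 574 and 82.3 CPM. EREG, the growth factor epiregulin, had 59.4 CPM (41.6 to 82.3) in co-expressing, 10.7 CPM in LHX6-only and 7.66 CPM in ADARB2-only nuclei, with 36 UMIs in the co-expressing group.

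Receptor and channel genes were called in both directions. Of all measured genes, 1.39% were higher and 3.51% lower against LHX6-only nuclei. Against ADARB2-only nuclei these shares were 2.35% and 4.1%. Differences between the lists below and all genes were not tested. For 32 receptors of monoamines and acetylcholine, 10 were measured against LHX6-only nuclei, with HRH1 higher and CHRM2 lower (median log2 ratio 0.04). Against ADARB2-only nuclei 12 were measured, with HRH1 and CHRM2 higher and HTR1F, HTR3A and CHRM3 lower (median 0.48). CHRM2, the muscarinic M2 receptor, had 196 CPM (163 to 235) in co-expressing, 394 CPM in LHX6-only and 65.3 CPM in ADARB2-only nuclei. CHRM3, the M3 receptor, had 481, 533 and 2221 CPM in that order.

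Among 24 glutamate receptor genes, GRIN3A was higher and GRIK3 lower of 22 measured against LHX6-only nuclei (median log2 ratio −0.06). Against ADARB2-only nuclei GRIA4 was higher and GRM8 was lower. GRIN3A, an NMDA receptor subunit, had 659 CPM (596 to 727) in co-expressing, 258 CPM in LHX6-only and 350 CPM in ADARB2-only nuclei. Clusters 9 and 11, which held 0 co-expressing nuclei, had GRIN3A at 1548 and 1307 CPM, above the co-expressing nuclei. All other clusters were below them. GRIA4, an AMPA receptor subunit, had 2505, 2018 and 913.5 CPM in co-expressing, LHX6-only and ADARB2-only nuclei. Among GABA receptor genes 0 of 13 were called against LHX6-only nuclei. GABRD, the extrasynaptic delta subunit, was higher than in ADARB2-only nuclei (34.7 and 17.0 CPM), and GABRG1 was lower (31.4 and 132 CPM).

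Of the potassium channel genes, KCNA4 and KCNN3 were higher among 23 measured against LHX6-only nuclei (median log2 ratio 0.41), and KCNA4 was higher and KCNIP4 lower among 26 against ADARB2-only nuclei (median −0.00). KCNC2, the Kv3 channel of fast-spiking cells, had 2257, 3473 and 2119 CPM in co-expressing, LHX6-only and ADARB2-only nuclei, within the 2-fold limit. Of the sodium, calcium and HCN channel genes, 1 of 17 was higher and 2 were lower against LHX6-only nuclei, and 4 of 19 were higher and 1 lower against ADARB2-only nuclei. CACNA2D3 was lower in both comparisons, at 228 CPM (191 to 269) in co-expressing, 557 CPM in LHX6-only and 772 CPM in ADARB2-only nuclei, while its relative CACNA2D1 was higher in both. Inside cluster 1 the direction for CACNA2D3 turned against LHX6-only nuclei: it was higher in co-expressing nuclei, at 120 CPM, against 52.6 CPM in LHX6-only nuclei. Of 14 genes of nitric oxide and cyclic GMP signalling, NOS1, PRKG1 and PDE2A were higher than in ADARB2-only nuclei, and PRKG2, PDE1C, PDE3A and PDE5A were lower (median −0.50). Only PRKG2 was called against LHX6-only nuclei, lower (median −0.09).

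The axon guidance and adhesion list had more lower than higher calls, and a larger share of lower calls than all measured genes. Of all measured genes 3.51% were lower and 1.39% higher against LHX6-only nuclei (median log2 ratio −0.03). Against ADARB2-only nuclei these shares were 4.1% and 2.35% (median −0.02). The difference between the list and all genes was not tested. Against LHX6-only nuclei 1 of 45 measured was higher, NTNG1, and 7 were lower, with a median log2 ratio of −0.26. Against ADARB2-only nuclei 1 of 47 was higher, UNC5D, and 12 were lower, with a median of −0.42. PCDH11X, a protocadherin, had 54.5 CPM (37.5 to 76.5) in co-expressing, 266 CPM in LHX6-only and 236 CPM in ADARB2-only nuclei. CDH9, a cadherin, had 126, 402 and 325 CPM. ROBO1, a receptor of SLIT repellents, had 1199, 1018 and 3525 CPM.

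Of the growth factor genes, KITLG, EGFR and ALK were higher and GFRA1 and PDGFC lower of 19 measured against LHX6-only nuclei (median log2 ratio −0.12). FGF13 and KITLG were higher and FGFR2 was lower of 22 measured against ADARB2-only nuclei (median 0.23). ALK, a receptor tyrosine kinase, had 1319 CPM (1229 to 1414) in co-expressing, 518 CPM in LHX6-only and 730 CPM in ADARB2-only nuclei. Of the neuropeptide list, CCK was higher and NXPH2 lower of 8 measured against LHX6-only nuclei (median 0.17), and NXPH1 was higher and CRH and NXPH2 lower of 9 against ADARB2-only nuclei (median 0.26). NPY had 3 UMIs, VIP 3 and PVALB 2 in all co-expressing nuclei. Of the immediate early genes 0 of 2 were called against LHX6-only nuclei and NR4A3 of 3 was lower than in ADARB2-only nuclei, and FOS, FOSB, JUNB and NPAS4 were at 0 UMIs.

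Peptide and cannabinoid receptors gave TACR1 and CNR1 as higher and OPRD1 as lower of 6 measured against LHX6-only nuclei (median log2 ratio 0.20). TACR1 was higher and HCRTR2 and CNR1 were lower of 8 measured against ADARB2-only nuclei (median −0.04). Of 7 measured steroid and stress receptor genes, RORA was higher than in ADARB2-only nuclei (median −0.28). NR3C2, the mineralocorticoid receptor, had 396 CPM (348 to 450) in co-expressing, 184 CPM in LHX6-only and 518 CPM in ADARB2-only nuclei. For GABA release and uptake, 0 of 5 measured genes were called against LHX6-only nuclei (median 0.27). Of the gap junction genes 1 was measured in each comparison and 0 were called.

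Markers of other cells had similar summed levels in co-expressing and LHX6-only nuclei. The summed level of 7 astrocyte genes was 428 CPM in co-expressing, 405 CPM in LHX6-only and 782 CPM in ADARB2-only nuclei, with barcode sets from 258 to 671, from 387 to 427 and from 707 to 889 CPM. For 6 oligodendrocyte genes it was 140, 151 and 140 CPM, and for 6 microglial genes 41.3, 35.2 and 33.7 CPM. It was 441, 389 and 507 CPM for genes of oligodendrocyte precursors, 23.1, 21.7 and 13.5 CPM for vascular genes, 608, 550 and 734 CPM for intercalated and striatal-like genes and 310, 358 and 252 CPM for immature neuron genes. The part of other cells in the gene differences was not tested. In the co-expressing nuclei CSPG4 and OLIG1 of the oligodendrocyte precursors, C1QC of the microglia and CLDN5 and ABCC9 of the vascular cells were at 0 UMIs. The sum of the 9 excitatory genes ran from 201 to 266 CPM over the barcode sets of co-expressing nuclei, from 179 to 219 CPM in LHX6-only nuclei and from 225 to 256 CPM in ADARB2-only nuclei. Called genes of these lists were VCAN and BCL11B, higher than in LHX6-only nuclei, and SLC1A2, ST18 and MEIS2, lower than in ADARB2-only nuclei. Of the chandelier and basket list 0 of 6 were called against LHX6-only nuclei, and TRPS1 was the 1 of 6 that was higher than in ADARB2-only nuclei. Of the immature neuron list 0 of 2 were called in either comparison.

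Within cluster 1 fewer genes were called, out of fewer measured. Cluster membership depends on these genes, so levels there are a description. The 65 co-expressing nuclei were set against the 124 LHX6-only nuclei of the same cluster, where 19 of 3042 measured genes (0.625%) were higher and 43 (1.41%) lower. Against the 63 ADARB2-only nuclei of the cluster, 0 of 1819 were higher and 5 (0.275%) lower. LAMP5 had 115 CPM in co-expressing, 119 CPM in LHX6-only and 113 CPM in ADARB2-only nuclei of cluster 1, from 50, 88 and 44 UMIs. EYA4 had 757, 941 and 746 CPM in that order, and FBN2 had 969, 705 and 970 CPM. SV2C had 443, 507 and 387 CPM, and HRH1 had 371, 399 and 323 CPM. SULF2 had 254, 191 and 167 CPM, and MTHFD2L had 376, 233 and 321 CPM. None of these genes reached a 2-fold difference inside the cluster. The same held there for CACNA2D1, CRTAC1, ANO3, MYO3A and MAML2, also above both pooled groups.

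Some genes were called inside cluster 1. CNIH3 stood at 281 CPM in co-expressing and 129 CPM in LHX6-only nuclei, and TACR1 at 261 and 117 CPM. NECTIN3, an adhesion protein, had 182 and 44.5 CPM, and NFIA, a transcription factor, had 268 and 84.9 CPM. NOS1, with a log2 ratio of −0.07 between the full groups, was lower in co-expressing nuclei than in LHX6-only nuclei of the cluster, at 311 and 709 CPM. SFMBT2, a Polycomb-related protein, was lower too, at 39.2 and 225 CPM, as was CASR, the calcium-sensing receptor, at 18.5 and 70.1 CPM. Against ADARB2-only nuclei of the cluster RELN was lower, at 173 and 441 CPM, as was SYNDIG1, a regulator of AMPA receptor content at synapses, at 57.7 and 151 CPM. The groups were placed unevenly within cluster 1. At a resolution of 1.0 its 3 parts held 7, 35 and 23 co-expressing and 75, 44 and 5 LHX6-only nuclei. Over all nuclei of these parts NOS1 had 989, 301 and 327 CPM. TACR1 had 94.7, 201 and 289 CPM, and CNIH3 had 118, 242 and 91.6 CPM. The part of this placement in the calls was not tested.

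The nuclei with at least 2 UMIs of LHX6 were also ordered by ADARB2. The share in cluster 1 was 26.9% of nuclei without ADARB2, 46.2% of those with 1 or 2 UMIs and 77.8% of those with 3 to 9. Above the threshold it was 88.5% at 10 to 19 UMIs, 92.3% at 20 to 29 and 64.3% at 30 or more. The share at 3 to 9 UMIs, below the threshold, thus fell within the range of the bins above it. EYA4 had 221, 437 and 723 CPM in the 3 bins below the threshold and 667, 709 and 478 CPM in the 3 above it. FBN2 had 144, 319 and 850 CPM below and 790, 955 and 713 CPM above. SATB1 had 219, 150 and 49.7 CPM below and 117, 22.9 and 43.8 CPM above. NOS1 peaked at 556 CPM (462 to 663) in the bin of 3 to 9 UMIs and had 284, 320 and 211 CPM above it. Median depth was 7259 UMIs at 0 ADARB2 UMIs, 6098 at 3 to 9 and 8404 at 30 or more.

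**Figure D5:**
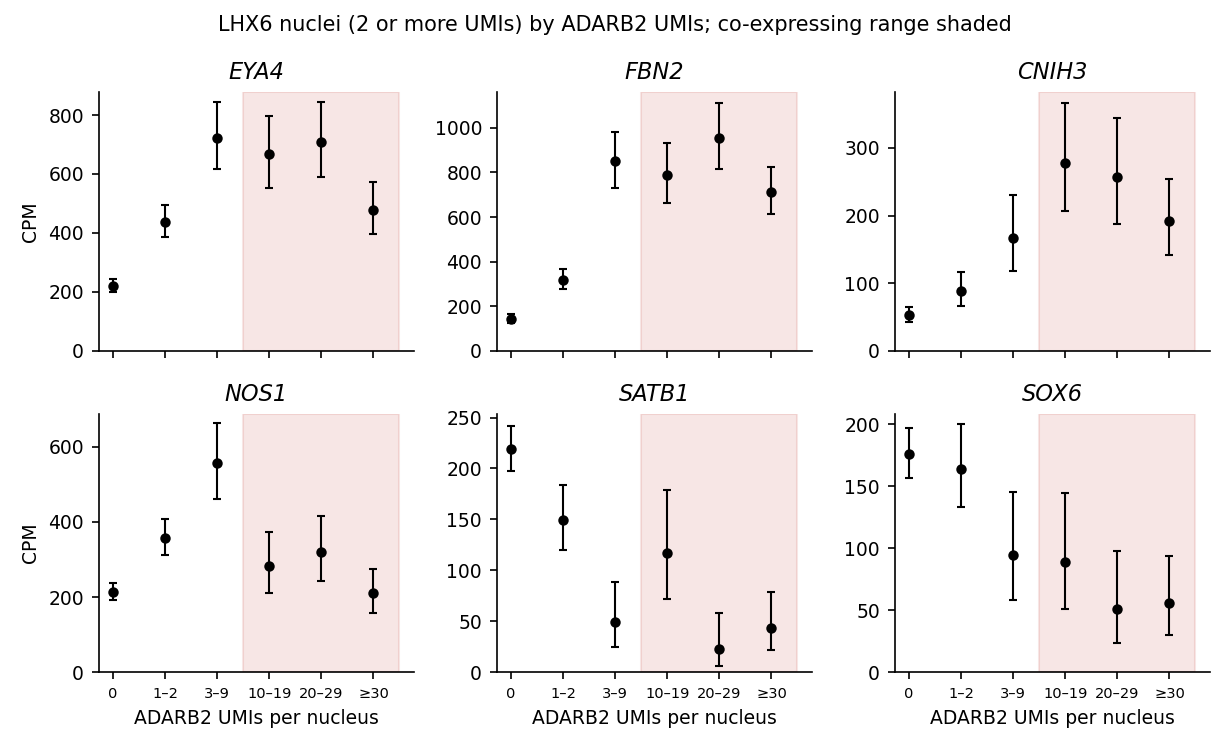
Levels of 6 genes in CPM (vertical axes, linear) in nuclei with at least 2 LHX6 UMIs, by ADARB2 UMIs per nucleus (horizontal axis), with exact 95% Poisson intervals; the shaded bins are the co-expressing nuclei. EYA4, FBN2 and CNIH3 are low without ADARB2 and high from 3 to 9 UMIs on, SATB1 and SOX6 run the other way, and NOS1 is highest at 3 to 9 UMIs.

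Among nuclei with at least 10 UMIs of ADARB2, the presence of LHX6 went with the same cluster. Cluster 1 held 4.66% of those without LHX6, 71.4% of those with 1 UMI, 85.7% with 2 and 76.3% with 3 or more. NXPH1 had 638, 2611, 3620 and 3446 CPM in these 4 bins, and CNR1 had 1411, 287, 265 and 244 CPM. The 70 nuclei with 1 LHX6 UMI were thus nearer to the co-expressing than to the ADARB2-only nuclei in both genes.

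The co-expressing nuclei were not uniform. SFTA3, a gene of the surfactant family and the first leading gene of cluster 1, had UMIs in 16 of 80, and CHST9, a carbohydrate sulphotransferase, in 19 of 80, with both in 2. In cluster 1 as a whole SFTA3 was seen in 123 nuclei, CHST9 in 169 and both in 13 of 622. At a resolution of 1.0 cluster 1 broke into 3 clusters that held 35, 23 and 7 of the 65 co-expressing nuclei. The cluster with 35 had CHST9 at 207 CPM (155 to 272) and SFTA3 at 23.9 CPM (8.79 to 52.1) in its co-expressing nuclei. The cluster with 23 had CHST9 at 7.22 CPM (0.183 to 40.2), from 1 UMI, and SFTA3 at 115 CPM (66.0 to 188). The cluster with 7 had NOS1 at 722 CPM (494 to 1019), against 255 and 281 CPM in the other two, and ADARB2 at 326 CPM over all of its 317 nuclei. Since these genes took part in the clustering, the values describe the clusters.

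Further genes varied from nucleus to nucleus. EYA4 ran from 0 to 30 UMIs with a median of 3.5 and was seen in 66 of the 80 co-expressing nuclei. FBN2 was seen in 67 of 80 and HRH1 in 64. SV2C was seen in 60 of 80, NOS1 in 56, CNIH3 in 49, CNR1 in 45 and LAMP5 in 39. RELN was concentrated, with UMIs in 26 nuclei and up to 45 in 1 of them, and SATB1 was seen in 12 nuclei, with up to 11. LAMP5 and NOS1 were found together in 30 nuclei, LAMP5 alone in 9 and NOS1 alone in 26.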

How the data were processed

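The deposited table holds unnormalised UMI counts, all of them whole, for 26400 nuclei and 19708 gene rows; the highest was 705. The authors' pipeline used fastp and Cell Ranger 3.0.0 with the build GRCh38, per the submitters' processing notes; as 5142 rows carry macaque Ensembl identifiers, the annotation behind the counts is unclear and coordinates are left out. A reference table gave symbols to 851 of these rows, of which 796 were renamed. Genes without a row were not analysed here. Some genes of the lists are not reported here. Columns of other samples numbered 0.

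Groups were set by UMI counts as stated in the report. Members and gene lists were chosen with earlier results of these data known. Counts were summed per group and scaled to CPM, with exact Poisson intervals, and shares have Clopper-Pearson intervals, all at 95% and for counting error only. To be measured, a gene needed 50 UMIs in 1 of the groups and an expected 10 UMIs in each at the higher of both levels. A count of 0 was set to a floor of 3 counts, summed over the group, in ratios. The count table pools all nuclei, so the planned description of 1 pool was kept and no test was made.

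Named genes were, per comparison, the 10 highest and 10 lowest ratios with 1 direction in 3 barcode sets, the 15 highest and 10 lowest against both groups, all marker genes and the called genes of the functional lists. Genes named within cluster 1 and genes picked as examples were chosen after their values were seen.

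Doublets were kept; the highest Scrublet scores of each barcode set, at 0.8% per 1000 nuclei, are called presumed doublets. Inhibitory nuclei were clustered with counts scaled to 10000 and log-transformed, 2000 variable genes without the rule genes, 30 principal components, 15 neighbours and Leiden resolution 0.5 (Python 3.11.15 with scikit-learn 1.9.0, igraph 0.11.9 and scanpy 1.11.5), with values capped at 10. The calling steps were tested on simulated data. Shares of nuclei were also thinned to 2000 UMIs, which left out 0 co-expressing, 0 LHX6-only, 4 ADARB2-only and 48 excitatory nuclei. Nuclear RNA is rich in unspliced transcripts and only 3′ ends are read, so levels are compared within a gene.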

Additional observations from a re-analysis of the deposited data

How the results depend on the processing

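With 80 nuclei and 605595 UMIs, genes of low level rested on few counts, and only large differences could be seen. The number of co-expressing nuclei was 150 at 1 LHX6 UMI and 38 at 3, and stayed within 1.5 times of 80 under the other limits tried. The genes higher than in LHX6-only nuclei (93) numbered 53 at 3 LHX6 UMIs, 167 without the SLC17A7 and SST limits on the comparison groups, 36 where 200 UMIs were needed, 56 after thinning and 71 to 97 without 1 barcode set. Those lower (234) numbered 76 at 200 UMIs and 208 to 247 without 1 set. Over ADARB2-only nuclei, the higher genes (185) numbered 98 at 200 UMIs and 187 to 195 without 1 set, and the lower ones (323) 213 after thinning and 249 to 320 without 1 set. Genes above both groups (24) numbered 49 without those limits, 13 at 200 UMIs and 19 to 27 without 1 set, and genes below both (69) 15 at 200 UMIs and 60 to 86 without 1 set. Fewer counts leave fewer genes measured; other causes were not tested.

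With only the 65 members of cluster 1, a setting chosen after the data were seen, 359 genes were lower than in LHX6-only nuclei, 57 above both groups and 181 below both. The median ratio of UMIs without 1 barcode set ran from 0.948 to 0.996 over LHX6-only and from 1.12 to 1.17 over ADARB2-only nuclei. The share in the single largest cluster was 43.8% at resolution 1.0, 42.5% with 15 components, 46.2% with all genes, 53.3% without presumed doublets and 40.4 to 61.5% without 1 set, since cluster 1 was then divided. Clusters made mainly of its nuclei held 76.9 to 84.6% without 1 set, shares that largely follow from how these clusters were picked. Of the 73 named genes called against LHX6-only and the 99 called against ADARB2-only nuclei, 0 changed sign where they were still measured. Thinning left 34 and 61 of them called, with 37 and 34 no longer measured. Calls already required the same direction in every barcode set, so leaving 1 set out could hardly turn a sign. A higher UMI limit leaves the ratios as they were. The absence of sign changes under these settings is thus largely fixed by the selection. Comparing both groups inside cluster 1, where CACNA2D3 turned against LHX6-only nuclei, was not among the settings. No paired analysis was possible because the nuclei form 1 pool whose barcodes carry no replicate number from the labels.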
